A study of Mus musculus with 12 samples.

Results

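The comparison set the 3 arrays of Gfi1 knock-out mice (KO) against the 9 arrays of the 3 groups that carry a GFI1 gene, pooled, and so used all 12 arrays of the series. The 9 arrays are 3 of wild-type mice (WT), 3 of mice with the human wild-type gene knocked in (wtKI) and 3 of mice with a human variant form knocked in (SNP). They are called carriers here. All groups were C57BL/6 mice housed free of specific pathogens, and the RNA came from granulocyte monocyte precursors (GMPs) sorted from bone marrow by flow cytometry. Age and sex are not in the labels, nor is it stated whether each array is from its own mouse. The p-values therefore measure only the spread between arrays, which may be technical. The series asks which genes depend on the human variant in relation to acute myeloid leukaemia, and the pooled contrast asks which genes differ when Gfi1 is knocked out, whichever form the other mice carry. Genes were chosen by 1 rule. A gene is called separated here where every KO array lay above the highest, or every KO array below the lowest, of the 9 carrier arrays.

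GFI1 is a zinc finger protein that represses transcription by bringing the histone demethylase LSD1, its partner CoREST and histone deacetylases to its target genes. GMPs are bone marrow progenitors that give rise to neutrophils and monocytes. Mice without Gfi1 are known to lack mature neutrophils, and their myeloid precursors are known to make little of the proteins of the secondary granules, which neutrophils load late in maturation. GFI1 is also known to hold down genes of other blood lineages.

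The values are RMA log2 signals, one per gene: the median of the gene's probe sets. There were 14199 genes. The array medians lay between 7.32 and 7.58, and KO 1 and SNP 1 stood apart from the rest. Their median correlations with the other arrays were 0.70 and 0.633, against 0.836 to 0.886 for the other 10 arrays, and the probe sets of a gene scattered by 0.441 and 0.447 on them, against 0.163 to 0.256. SNP 1 had high neutrophil, erythroid and B lineage genes, and low Cd34 and Kit, the surface markers of progenitors. Several results that rest on these arrays are therefore given with and without them. The GMP marker Mpo, the peroxidase of primary granules, lay between 11.4 and 11.5 on the 3 KO arrays, and Cd34 between 10.5 and 10.8. The Y-linked genes were at a mean of 2.94 to 3.18 on WT 3, wtKI 2 and wtKI 3 and of 7.49 to 8.38 on the other 9 arrays, which include all 3 KO arrays. In these bulk samples, a change in the share of a cell type and a change in RNA per cell cannot be told apart.

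Of the 14199 genes, 113 were separated higher in KO (0.796% of all genes) and 58 separated lower (0.408%). The median difference, KO minus the pooled carriers, was 0.76 for the 113 genes and -0.63 for the 58, beside -0.01 over all genes. Most of the margins were narrow. The gap, measured from the nearest KO array to the nearest carrier array, was under 0.1 for 57 of the higher and 35 of the lower genes, and at least 0.5 for 9 and 4. At the edge of the rule, the margin on the higher side was 0.00083 for Vipas39, inside it, and -0.00231 for Taf5, outside it. On the lower side it was 0.00013 for Lmtk3 and -0.00183 for Gimap4. The separation is a count over arrays, with no estimate of how many genes would be separated by chance. The test was limma's moderated fit of the 4 group means to all 12 arrays, with Benjamini-Hochberg adjustment over all genes and a threshold of 0.05. It called 0 genes (0%), with a smallest adjusted p of 0.0538; 885 genes had an unadjusted p under 0.05, of which 471 were higher and 414 lower in KO. Of the 171 separated genes, 139 were among those 885. The rule and the p-value use the same 12 arrays, so this overlap is no independent support. So no gene below rose or fell by the adjusted test of KO against the pooled carriers on all 12 arrays, and the values are given as levels.

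**Figure D1:**
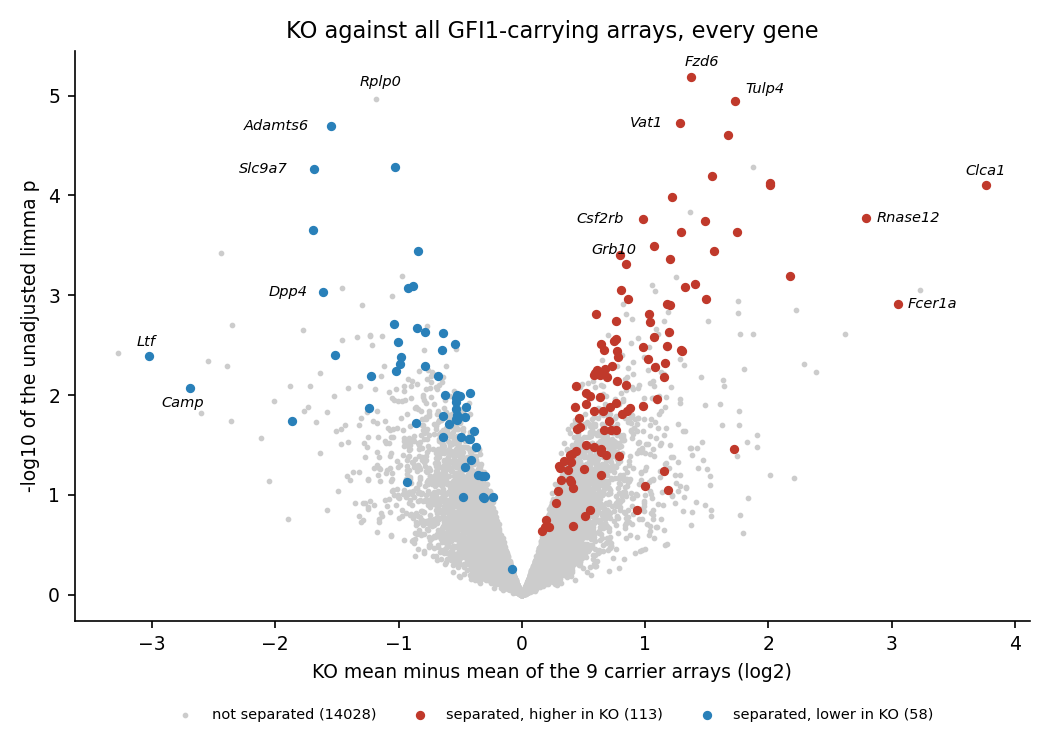
Each point is 1 gene. The x axis is the KO mean minus the mean of the 9 carrier arrays (log2) and the y axis is -log10 of the unadjusted limma p. The 113 red genes and 58 blue genes are those separated higher and lower, and 14028 grey genes were not separated.

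Gfi1 itself does not check KO against WT. The gene value on the KO arrays was 6.43, 6.74 and 6.58, and on the carriers it ranged from 5.59 to 6.65 with a median of 6.28. KO and SNP arrays overlapped, and the difference was 0.37 ± 0.18 (SE; limma adjusted p = 0.815). The gene has 5 probe sets, of which 2 were separated higher in KO and 0 lower. One of these 2 was at 6.43, 6.74 and 6.58 on KO and 5.08 to 6.29 on WT, against 2.36 to 3.83 on the 6 wtKI and SNP arrays, so it is low mainly where the human gene is knocked in. Another probe set lay the other way, at 5.33 to 5.85 on KO and WT and 6.65 to 7.39 on wtKI and SNP. Both split the arrays with a human knock-in from those without, as labelled. Gfi1b, the paralog of Gfi1, was at 7.90, 6.65 and 6.46 on KO and between 6.07 and 6.64 on the carriers. Its difference was 0.58 ± 0.26 (SE), and 0.16 ± 0.16 without KO 1 and SNP 1.

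Fcer1a, which encodes the IgE-binding subunit of the Fc receptor on mast cells and basophils, had the widest gap of all separated genes. It was at 8.41, 7.88 and 8.46 on the KO arrays. On the carriers the lowest value was 3.08, the median 5.33 and the highest 6.59. No carrier came within 1.29 of the lowest KO array, and all 3 probe sets of the gene were separated on their own. The difference was 3.05 ± 0.72 (SE; limma adjusted p = 0.358), and the carriers spread widely, with 5 of 9 under the 5th percentile of their own array.

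Hdc, the histidine decarboxylase that makes histamine, was at 9.34, 9.53 and 9.54 on KO. The carriers ranged from 6.82 to 9.23 with a median of 8.56. KO lay above all 9, by a narrow gap of 0.10 to SNP 1, and by 0.55 once KO 1 and SNP 1 were left out. The difference was 1.08 ± 0.31 (SE; limma adjusted p = 0.587), and 4 of 12 probe sets were separated.

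The promoters of Fcer1a and Hdc, among the higher genes, and of Ltf and Camp, among the lower, are shown because these genes carry the mast cell and granule results. Each holds 250 bases before the gene's start and 50 after it, from RefSeq on GRCm38.p6, 5′ to 3′ on the gene's strand. Capitals mark matches on either strand to the core motif of GFI1, to a GATA motif or to a C/EBP motif, whose letters follow the sequences. The regions are chr1:173227180-173227479 on the minus strand, chr2:126618629-126618928 on the minus strand, chr9:111019042-111019341 on the plus strand and chr9:109849407-109849706 on the minus strand.
Fcer1a: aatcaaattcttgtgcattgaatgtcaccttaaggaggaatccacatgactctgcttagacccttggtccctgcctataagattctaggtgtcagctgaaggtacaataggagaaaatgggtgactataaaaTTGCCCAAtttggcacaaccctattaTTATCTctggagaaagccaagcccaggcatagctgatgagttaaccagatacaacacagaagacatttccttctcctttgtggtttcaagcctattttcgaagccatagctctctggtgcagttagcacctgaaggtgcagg
Hdc: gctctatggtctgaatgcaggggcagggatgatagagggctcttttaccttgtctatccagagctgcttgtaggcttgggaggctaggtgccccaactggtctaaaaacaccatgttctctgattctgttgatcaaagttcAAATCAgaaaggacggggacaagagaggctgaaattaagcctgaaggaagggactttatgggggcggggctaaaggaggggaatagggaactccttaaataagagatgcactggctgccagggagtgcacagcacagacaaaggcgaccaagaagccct
Ltf: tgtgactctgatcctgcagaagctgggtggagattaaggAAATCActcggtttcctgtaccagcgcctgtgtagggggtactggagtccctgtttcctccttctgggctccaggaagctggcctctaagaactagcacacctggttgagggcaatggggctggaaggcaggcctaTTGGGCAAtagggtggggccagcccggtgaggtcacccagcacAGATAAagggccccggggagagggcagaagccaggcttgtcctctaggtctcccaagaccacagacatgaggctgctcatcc
Camp: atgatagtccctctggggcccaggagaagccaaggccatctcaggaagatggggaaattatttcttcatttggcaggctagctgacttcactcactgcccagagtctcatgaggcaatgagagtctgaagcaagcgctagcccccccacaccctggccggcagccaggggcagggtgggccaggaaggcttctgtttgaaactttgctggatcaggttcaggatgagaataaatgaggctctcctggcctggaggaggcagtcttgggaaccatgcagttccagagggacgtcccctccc

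The GFI1 core was searched as AAATCA and the C/EBP motif, of the factors that drive granulocyte genes, as TTNNGCAA. The GATA motif, of the factors that mast cells and basophils use, was searched as AGATAA, with T also allowed as its first base. The Fcer1a window holds 1 GATA and 1 C/EBP match, the Hdc window 1 GFI1 core, the Ltf window 1 of each, and the Camp window 0. Of the separated genes with a promoter in the table, 12 of 93 higher genes (12.9%) and 3 of 47 lower genes (6.38%) held the GFI1 core, beside 11.1% of the 11314 genes measured that have a promoter in the table and 14% of all 32851 promoters. The GATA letters were in 12.9% of the higher and 23.4% of the lower genes, beside 13.4% of those measured and 18.6% of all promoters. The C/EBP letters were in 19.4% and 12.8%, beside 10.5% and 10.8%. A match is a match of letters and was not tested as a site.

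The mast cell, basophil and eosinophil list had 20 measured members, of which 15 lay higher in KO and 3 were separated higher: Fcer1a, Hdc and Csf2rb. That is 3 of 20 against 0.796% of all genes. The list's median difference was 0.50, beside -0.01 over all genes, and 0.29 on the 10 arrays left without KO 1 and SNP 1. Of the members not separated, Prg3, a major basic protein homolog of eosinophils, was at 8.98, 8.77 and 7.71 on KO against 5.84 to 9.06 on the carriers. Cpa3, the mast cell carboxypeptidase, differed by 0.97 ± 0.41 (SE), and Gata2, the factor that mast cells and basophils need, by 0.02 ± 0.24. On KO the list's mean stood 0.53 to 0.76 above the carriers' mean, and wtKI 3 stood at 0.67, inside the range of the KO arrays.

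Csf2rb, the beta chain shared by the receptors for IL-3, IL-5 and GM-CSF, was at 8.44, 8.36 and 8.25 on KO. The carriers lay between 6.92 and 7.80, with a median of 7.49. The 3 KO arrays were close to each other and 0.45 above the nearest carrier, and 6 of 9 probe sets were separated. The difference was 0.98 ± 0.18 (SE; limma adjusted p = 0.142). Without SNP 1 it was 1.06 ± 0.15 (limma adjusted p = 0.0334), but the adjusted p was 0.412 without KO 1 and 0.0713 without both. Csf2rb2, its near-identical neighbour whose product pairs only with the IL-3 receptor, differed by 1.13 ± 0.34. It was not separated, since wtKI 3 at 7.19 lay above the lowest KO array at 7.12, and signal could be split between the pair. In the list of colony-stimulating factor and IL-3 receptors, 10 of 18 genes were higher in KO, beside 47.7% of all genes, and 1 was separated, beside 0.796%. Csf2ra, the GM-CSF receptor alpha chain, differed by -0.08 ± 0.24 and Il3ra by -0.13 ± 0.18.

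Grb10, an adaptor that binds activated receptor kinases, was at 7.22, 7.39 and 7.10 on KO and between 5.79 and 6.83 on the carriers, median 6.13. The KO arrays lay above all 9 with a gap of 0.27, and 6 of 11 probe sets were separated. The difference was 1.07 ± 0.21 (SE; limma adjusted p = 0.205). It was the 1 separated gene of 33 in the list of receptor signalling and cytokine feedback (0.796% of all genes), in which 18 were higher (47.7% of all genes). Pim1, a kinase induced by cytokines, was at 7.84, 7.07 and 7.08 and missed separation because SNP 1 stood at 7.17. Its difference of 0.89 became -0.05 on its brightest probe set. Dab2, an endocytic adaptor, missed it because KO 1 stood at 5.81, below wtKI 1 at 6.04 and SNP 3 at 5.85.

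**Figure D2:**
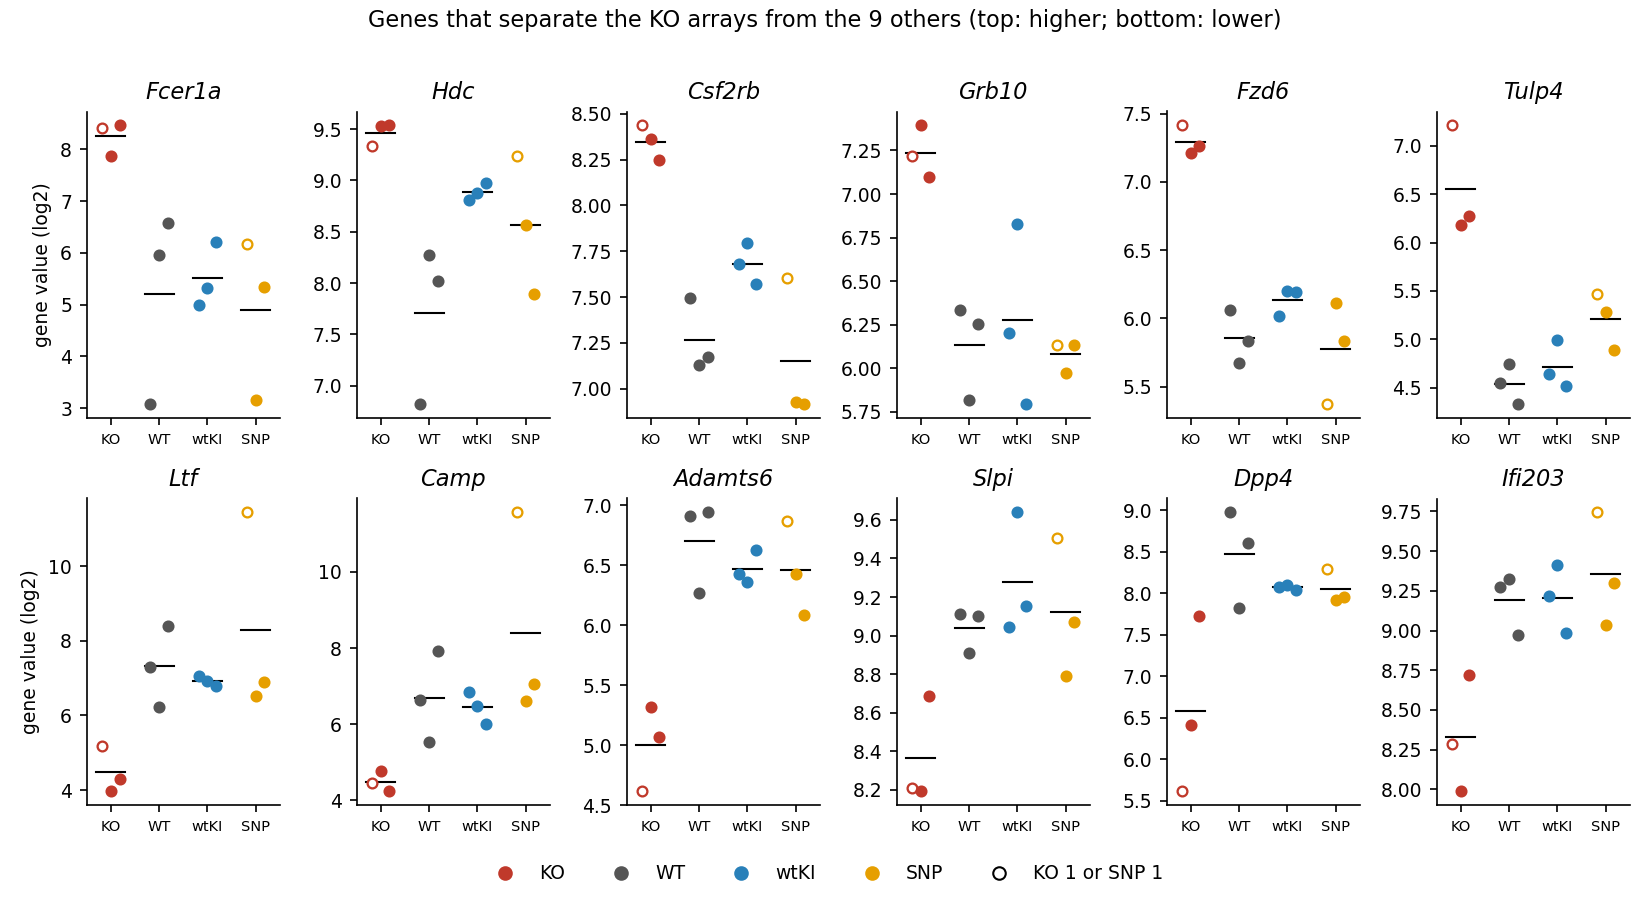
Gene values (log2) of 12 separated genes on each array, by group, with a line at each group's mean; open circles are KO 1 and SNP 1. The top row holds genes on which every KO array lies above all 9 carriers and the bottom row genes on which every KO array lies below them; for Ltf and Camp, SNP 1 lies far above the other carriers.

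The smallest p of the genes separated higher belonged to Fzd6, a Frizzled receptor for Wnt proteins. It was at 7.41, 7.21 and 7.26 on KO and between 5.37 and 6.20 on the carriers, median 6.01. The gap was 1.01 and the difference 1.37 ± 0.18 (SE; limma adjusted p = 0.0538), though only 1 of its 3 probe sets was separated. That probe set had a mean of 7.63 on KO and 4.28 on the carriers. The others lay close, at 7.36 on KO and 7.18 on the carriers, and at 6.26 and 5.91. Tulp4, a tubby-like protein, was at 7.21, 6.18 and 6.27 on KO against 4.33 to 5.46, and 8 of the 9 carriers lay under the 5th percentile of their array. Its difference was 1.73 ± 0.24 (limma adjusted p = 0.0538). Of its 9 probe sets 2 were separated, and by the brightest probe set alone the gene was not. Without KO 1 and SNP 1 the differences of the pair were 1.25 ± 0.16 and 1.45 ± 0.19.

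Vat1, a vesicle membrane protein, was at 8.69, 8.53 and 8.96 on KO and between 6.90 and 7.85 on the carriers. It lay above the 5th percentile of every array, and 4 of its 5 probe sets were separated. The difference was 1.28 ± 0.18 (SE; limma adjusted p = 0.057). Ndrg2, a member of the NDRG family, was at 7.71, 7.12 and 7.45 on KO against 5.03 to 6.89, with a difference of 1.67 ± 0.25 and 5 of 11 probe sets separated.

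Further genes on the higher side had other roles. Serpina3g, an intracellular serine protease inhibitor, differed by 1.54 ± 0.25 (SE) with KO at 7.44, 8.02 and 7.99 against 5.18 to 7.01. Selp, the P-selectin of platelets and endothelium, was at 6.23 or more on every KO array and at 4.59 to 5.87 on the carriers, and was the 1 separated gene of 12 in the megakaryocyte and platelet list, beside 0.796% of all genes. Rnase12, a ribonuclease family member with a single probe set, was at 9.42, 8.61 and 8.50 against 4.25 to 7.75. The largest difference among the separated genes was of the gene named Clca1 on the array's annotation, which RefSeq now calls Clca3a1: 3.77 ± 0.63, with KO at 9.32, 7.51 and 5.86 against 3.15 to 5.62. Its KO arrays were far from each other, and 8 of the 9 carriers lay under the 5th percentile of their array, so the size is poorly fixed. Without KO 1 and SNP 1 the difference was 2.83 ± 0.58, below the 3.18 of Fcer1a.

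Procr, the endothelial protein C receptor that marks stem cells, was the 1 separated gene of 18 in the list of stem and early progenitor genes, of which 12 were higher (median 0.19), beside 0.796% separated higher and 47.7% higher of all genes. It was at 7.43, 7.72 and 7.41 on KO against 6.45 to 7.24. Hoxa9, a homeobox gene that maintains progenitors, was separated with a gap of 0.04: KO was at 9.38, 9.53 and 9.63, and wild-type and knock-in arrays apart from SNP 1 at 8.49 to 9.34. SNP 1 stood at 5.55. Without KO 1 and SNP 1 the difference was 0.61 ± 0.21 (SE). Hoxa9 was also the 1 separated gene among the 23 reported Gfi1 targets, of which 14 were higher with a median difference of 0.07, or -0.01 by the brightest probe set. Meis1, its partner, was not separated at 7.61, 7.64 and 7.50 against 6.10 to 8.09.

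The widest gap on the lower side was of a secondary granule gene. Ltf, which encodes the iron-binding protein lactoferrin, was at 5.18, 3.97 and 4.31 on KO. The carriers ranged from 6.24 to 11.45 with a median of 6.94, SNP 1 being the highest. The 3 KO arrays lay 1.06 below the lowest carrier, and 6 of 13 probe sets were separated. The difference was -3.02 ± 0.85 (SE; limma adjusted p = 0.55), and on the 10 arrays -2.85 ± 0.42 (limma adjusted p = 0.0713). Camp, the cathelicidin antimicrobial peptide, was at 4.45, 4.78 and 4.24 on KO against 5.54 to 11.56, median 6.64. The gap was 0.76. For both genes 2 of the 3 KO arrays were under the 5th percentile of their array, so the difference is bounded by the background.

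The rest of that list lay on both sides. Of 18 measured genes of the secondary and tertiary granules, 9 were higher and 9 lower in KO, and 2 were separated lower, beside 0.408% of all genes. The list's median was -0.08, and 0.21 without the dimmest 30% of genes. Ngp, a neutrophil granule protein, was at 6.23, 4.13 and 3.51 against 6.14 to 11.25, and missed separation only because KO 1 lay above wtKI 3. Mmp8, the neutrophil collagenase, lay the other way. It was at 10.32, 10.35 and 10.48 on KO, 6.49 to 8.87 on 8 carriers and 11.34 on SNP 1. Its difference without SNP 1 was 2.55 ± 0.26 (SE; limma adjusted p = 0.00814), 1.45 above the nearest of the 8. The adjusted p was 0.702 without KO 1 and 0.0538 without both, so the call was lost in each. The neutrophil calprotectin genes S100a8 and S100a9 ran from 5.50 to 8.91 on KO. S100a9 was at 8.91, 6.50 and 5.50 against 7.80 to 11.89, and was separated lower only once KO 1 was left out. The same held for S100a8 and Retnlg, of the 13 genes in the mature neutrophil list. Without KO 1, 2.89% of all genes were separated lower. Primary granule genes, which are loaded earlier, were higher in 10 of 12 (47.7% of all genes), with a median of 0.23 and 0 separated. SNP 1 was low on that list, at -1.05 from the carriers' mean, and the median was 0.22 on the 10 arrays, 0.004 against WT, 0.08 against wtKI and 0.55 against SNP. Beside these lists, the erythroid list's mean deviated by 3.05 and the B lineage list's by 2.32 on SNP 1, and the erythroid list's by 0.69 on KO 1. Their part in the results was not tested.

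Adamts6, a secreted metalloprotease, had the smallest p of the genes separated lower. It was at 4.62, 5.31 and 5.06 on KO and between 6.08 and 6.94 on the carriers, median 6.42. KO lay 0.77 below the lowest carrier, though only 1 of 7 probe sets was separated and 2 KO arrays were under the 5th percentile. The difference was -1.55 ± 0.22 (SE; limma adjusted p = 0.057). Slc9a7, a sodium-proton exchanger of the Golgi, was at 5.15, 5.73 and 6.46 against 6.56 to 8.02, with a difference of -1.69 ± 0.27 and 3 of 10 probe sets separated. Without KO 1 and SNP 1 this difference was -1.36 ± 0.27. Ptger2, a receptor for prostaglandin E2, was at 4.64, 5.12 and 5.94 against 5.98 to 7.58.

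Dpp4, the surface peptidase CD26 that trims chemokines, was at 5.62, 6.41 and 7.73 on KO and between 7.82 and 8.97 on the carriers. KO 3 lay just below the lowest carrier, and 6 of 24 probe sets were separated. The difference was -1.62 ± 0.37 (SE; limma adjusted p = 0.322). Without KO 1 and SNP 1 the difference of Dpp4 was -1.09 ± 0.34. Slpi, an inhibitor of the neutrophil elastase, was at 8.21, 8.19 and 8.69 on KO against 8.79 to 9.64. Its signal was high on every array, 4 of 6 probe sets were separated, and the difference was -0.78 ± 0.20. Rabgap1l, a regulator of Rab GTPases, was at 6.17, 6.18 and 6.67 against 6.99 to 7.68, with 6 of 25 probe sets separated. Dntt, the terminal transferase of early lymphoid cells, was at 6.15, 5.88 and 5.46 against 6.22 to 10.07, and was the 1 separated gene of 15 in the B lineage list, beside 0.408% of all genes.

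Aim2 and Ifi203, of the HIN-200 family that includes sensors of DNA, were separated lower. Aim2, a sensor that starts the inflammasome, was at 8.41, 8.60 and 8.54 on KO against 8.61 to 9.63, with a gap of 0.01. Ifi203 was at 8.29, 7.99 and 8.72 against 8.97 to 9.74. Neither difference was past the threshold: -0.54 ± 0.15 and -0.92 ± 0.21 (SE; limma adjusted p = 0.492 and 0.322). The list of interferon-stimulated and HIN-200 genes was lower in 19 of 29 members (median -0.16), with 2 separated lower against 0.408% of all genes. SNP 1 stood at 0.90 on that list, and its median was -0.07 on the 10 arrays. In the RefSeq order of genes, Fcer1a and Aim2 lie with 4 genes between them, and Aim2 and Ifi203 with 14, so a higher gene and 2 lower genes come from 1 stretch. Ifi202b, another HIN-200 gene, was at 2.25, 1.84 and 3.23 on KO, between 8.08 and 8.89 on the wtKI arrays and 7.11 on WT 1, and between 1.94 and 2.67 on the other carriers. Dipk1a was at 7.11, 6.88 and 7.60 on KO against 7.72 to 9.02. In the list of genes around Gfi1 it was the 1 separated gene of 15 measured, beside 0.408% of all genes. RefSeq has 8 genes between Gfi1 and Dipk1a.

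Leaving out the 2 arrays that stand apart changed how many genes were separated. It can only add genes, since a range over fewer arrays is narrower. Without KO 1, 413 genes were separated higher (2.91%) and 411 lower (2.89%). Without SNP 1, the counts were 174 (1.23%) and 103 (0.725%), and without both 527 (3.71%) and 485 (3.42%). The other KO arrays also counted: leaving out KO 2 gave 251 and 158, and leaving out KO 3 gave 299 and 268. By limma's adjusted p under 0.05, 0 genes (0%) were called without KO 1 (904 at an unadjusted p under 0.05), 14 without SNP 1 (0.0986%; 12 higher and 2 lower), and 1 without both (0.00704%). That last gene was Ifitm1, an interferon-induced membrane protein, at 9.53, 9.78 and 9.91 on KO, 9.74 on SNP 1 and 7.48 to 8.84 on the other carriers. Its difference on the 10 arrays was 1.67 ± 0.16 (SE; limma adjusted p = 0.0132).

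Without SNP 1 the 12 genes called higher were Fzd6, Tulp4, Vat1, Ndrg2, Csf2rb, Rxylt1, Ifitm1, Mmp8, Cfap74, Gyg, Tarm1 and Zdhhc2, and the 2 called lower were Adamts6 and Rplp0. Rxylt1, an enzyme of dystroglycan glycosylation, was at 8.14, 8.02 and 7.82 on KO against 5.61 to 7.28 on the carriers. Gyg, the glycogenin that starts glycogen, was at 9.46, 9.45 and 9.23 on KO, 9.72 on SNP 1 and at most 8.84 on the others. Tarm1, a receptor of myeloid cells, was at 7.61, 6.58 and 6.81 on KO, 8.66 on SNP 1 and at most 5.70 on the others. These 2 genes, Mmp8, Ifitm1 and Cfap74 were high on SNP 1 as on KO, and so were not separated on 12 arrays.

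**Figure D3:**
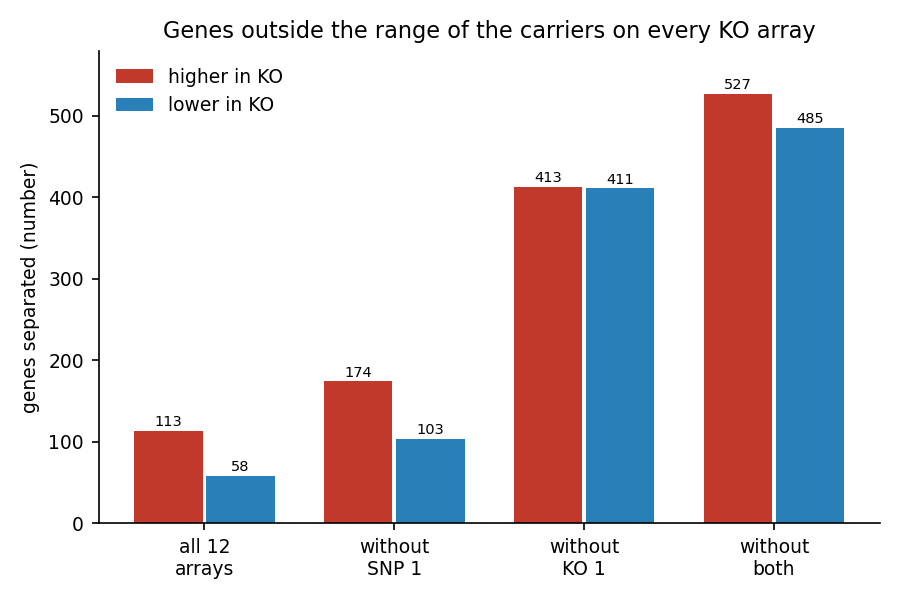
Number of genes separated higher (red) and lower (blue) in KO with all 12 arrays, without SNP 1, without KO 1 and without both. The counts go from 113 and 58 to 527 and 485.

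Set against each carrier group alone, which share the same KO arrays, limma called 1 gene against WT (0.00704%), 0 against wtKI (0%; 650 at an unadjusted p under 0.05) and 2 against SNP (0.0141%). Rplp0, an acidic ribosomal protein of the large subunit, was called lower against WT (adjusted p = 0.00949) and against SNP (adjusted p = 0.0324). It was at 8.15, 8.63 and 8.56 on KO, 10.29 to 10.41 on WT, 8.17 to 8.62 on wtKI and 10.10 to 10.22 on SNP. KO and wtKI arrays overlapped, and the gene was therefore not separated. Zdhhc2, a palmitoyltransferase, was called higher against SNP (adjusted p = 0.0429): KO was at 7.68, 7.53 and 6.78 and SNP at 3.82 to 4.99. With the replicate number as a block, limma called 0 genes against SNP (1671 at an unadjusted p under 0.05; smallest adjusted p 0.12) and 0 against WT (750; 0.0507). Zdhhc2 reached 6.95 on wtKI 2, above KO 3, and so was not separated. For the members above, the differences from WT, wtKI and SNP were of one sign: Fcer1a 3.04, 2.74 and 3.36, Csf2rb 1.08, 0.66 and 1.20, Ltf -2.83, -2.44 and -3.80, and Adamts6 -1.71, -1.47 and -1.46. The rule fixes that sign.

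Agreement among a gene's own probe sets varied. Of the 171 separated genes, 22 had 1 probe set and 149 more than 1. Of the 149, 44 had at least 2 probe sets separated the same way and 51 had 0, among them Ifi203, Procr and Hoxa9. The gene value was also taken by median polish, by the mean and by the brightest of its probe sets. By median polish and mean both, 56 of the 113 higher and 33 of the 58 lower genes were separated. The brightest probe set alone kept 28 and 20, and all 3 other summaries together kept 24 and 16. Fcer1a, Csf2rb, Grb10, Vat1, Ltf and Slpi were separated by all 3. Ifi203 was separated by none of the 3 other summaries, Hdc only by median polish and Fzd6 only by the mean. Csf2rb, Grb10, Rhoj, Tulp4 and Adamts6 passed limma's adjusted p under 0.05 with median polish, Csf2rb and Grb10 with adjusted p = 0.0267.

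**Figure D4:**
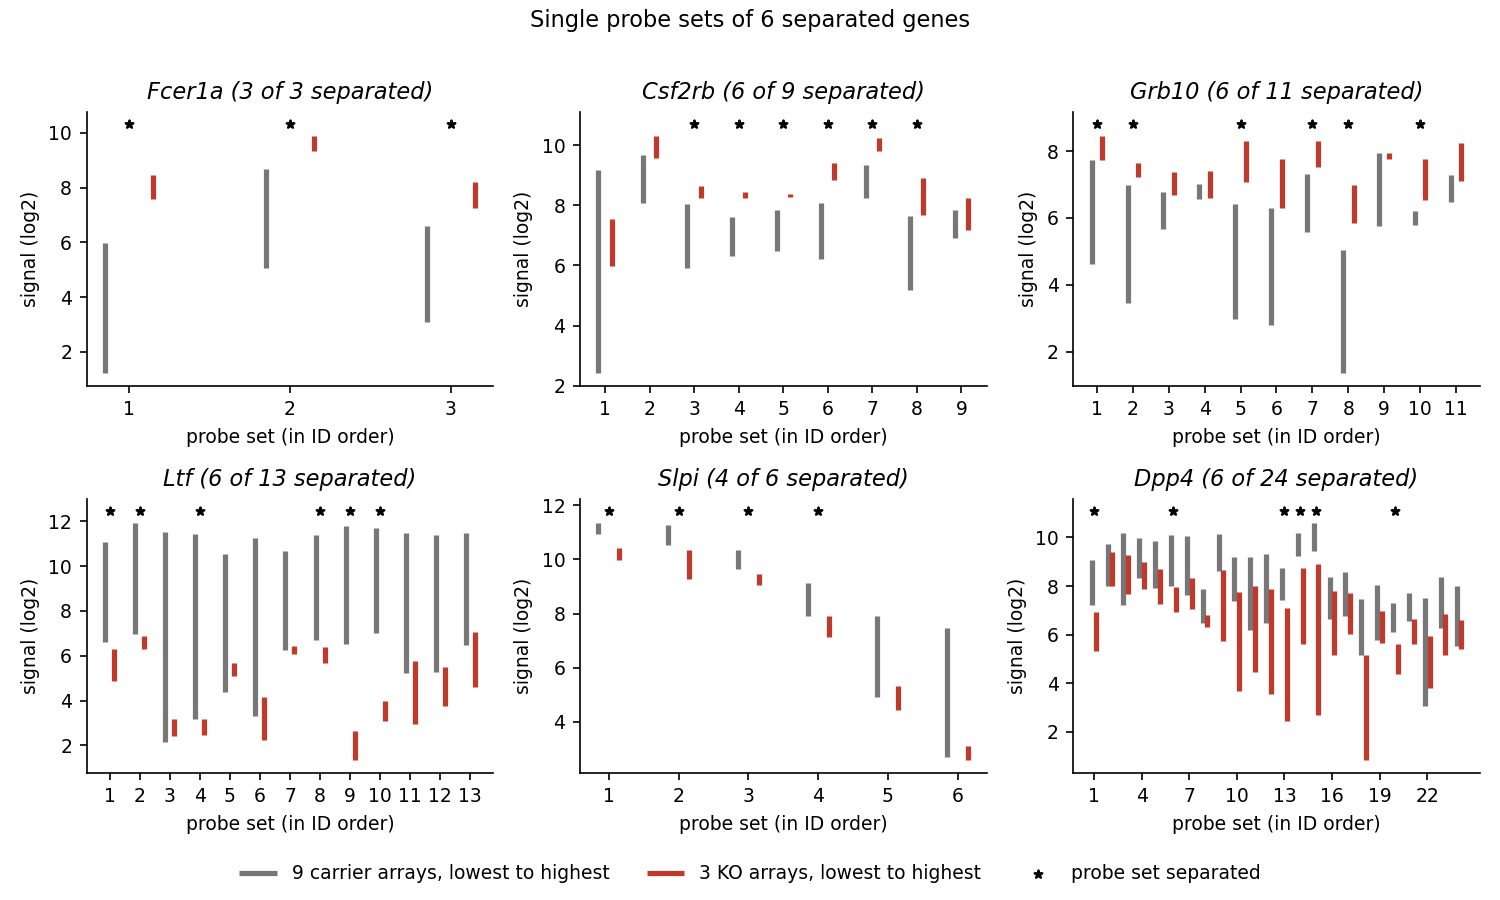
Each panel shows 1 separated gene and each position 1 of its probe sets, with the range over the 9 carrier arrays (grey) and the 3 KO arrays (red) as log2 signal; a star marks a probe set on which the ranges do not overlap. All 3 probe sets of Fcer1a, 6 of 9 of Csf2rb, 6 of 11 of Grb10, 6 of 13 of Ltf, 4 of 6 of Slpi and 6 of 24 of Dpp4 are starred.

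The other gene lists held few separated genes, and are read beside 47.7% of all genes higher, 0.796% separated higher and 0.408% separated lower. The ribosome biogenesis list was higher in 19 of 22 genes (median 0.14), with 0 separated. Its mean stood at -1.32 on SNP 1 and -0.27 on KO 1, and the median was 0.21 on the 10 arrays but -0.10 against WT, 0.04 against wtKI and 0.56 against SNP. The monocyte, macrophage and dendritic list was lower in 16 of 25 (median -0.22), also with 0. SNP 1 stood at 1.08 on that list, and the median was -0.29 on the 10 arrays and 0.17 against WT. The GFI1 corepressor list was higher in 10 of 20 (median 0.00) and the cell cycle list in 16 of 32 (median 0.00). The p53 target and BCL2 family list was higher in 13 of 21 (median 0.07). The immediate-early list was higher in 10 of 18 (median 0.04) and the inflammatory list in 2 of 14 (median -0.20). SNP 1 stood at 1.24 on the inflammatory list, whose median was -0.30 on the 10 arrays, -0.01 against WT, -0.06 against wtKI and -0.56 against SNP. The part of SNP 1 in these lists was not tested. In the T and NK list, where 8 of 19 genes were higher, Dpp4 was the 1 separated gene.

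**Figure D5:**
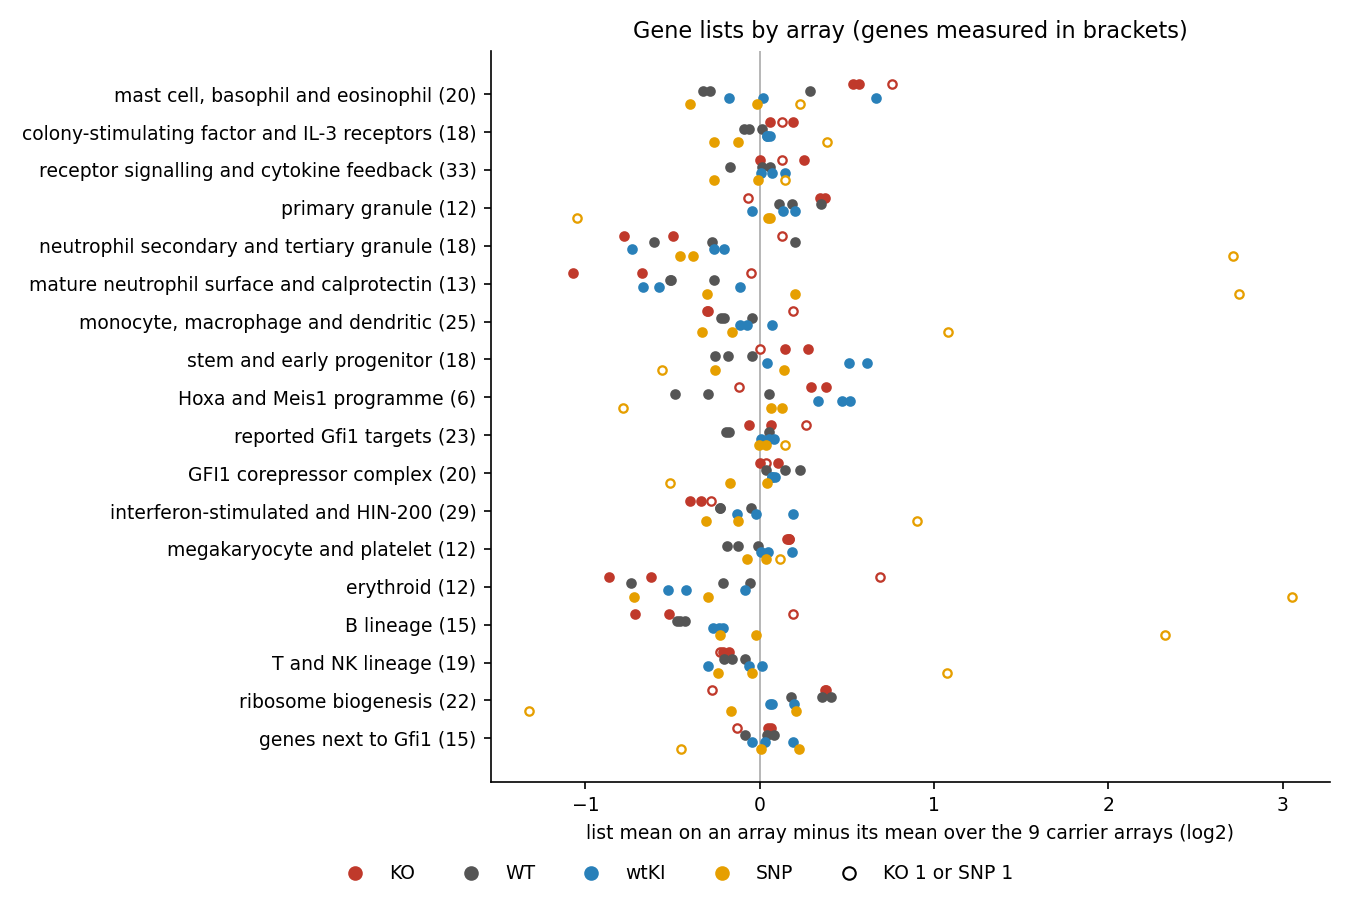
For 18 gene lists, each point is 1 array: the mean of the list's genes on it minus the list's mean over the 9 carrier arrays (log2), coloured by group, with KO 1 and SNP 1 as open circles. The mast cell list lies at 0.53 to 0.76 on KO, and SNP 1 lies at 2.71 to 3.05 for the neutrophil and erythroid lists.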

How the data were processed

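Expression was measured on 12 Mouse Gene 1.0 ST arrays, 3 per group, from RNA that was amplified and biotin-labelled from sorted cells, per the labels' protocols. The authors deposited log2 values per probe set; the submitters' processing notes name RMA for them. Its version and settings, and the genome build, are not stated there. Every one of the 105661 probe sets reached 6.14 on some array, so a filter may have been applied before deposit. Probe sets with 1 gene symbol (98975) were kept; 1703 had several symbols and 4983 none. Symbols were updated through the RefSeq table of GRCm38.p6 (1756 changed; 14146 of 14199 genes matched). A gene's value is the median of its probe sets (median 5; 2872 genes have 1).

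The 4 group means were fitted with limma 3.58.1 (R 4.3.3) and KO was contrasted with the mean of the 3 other groups, with Benjamini-Hochberg adjustment over all genes. The fit was tested on simulated data with known answers. Named genes were, by rule, Gfi1 and Gfi1b; of the separated genes the 15 per direction with the smallest p and the 5 with the widest gap; the separated genes of each list and its 3 largest differences; genes called on 12 or 10 arrays; and 7 genes named beforehand. The comparison, the gene lists and these 7 genes were chosen with earlier results of these data known. Cpa3, Gata2, Csf2ra, Il3ra, Mpo, Cd34 and the genes called without SNP 1 or against single groups were named after their values were seen. Replicate numbers were not used as pairs: of 18 same-number pairs of arrays, 3 had deviations that correlated over 0.1 (range -0.17 to 0.34). These 3 are the KO and SNP pairs (0.34, 0.19 and 0.14), so the blocked count is given beside the calls against SNP. Of unlike number, KO 2 and SNP 3 (0.20) and KO 3 and SNP 2 (0.29) also correlated over 0.1. So did KO 3 and wtKI 2 (0.22) and KO 1 and wtKI 3 (0.14). The number of arrays limits the precision. The alternatives tried were other gene summaries, centring, quantile normalization, filters, array weights, a variance trend, a 2-group fit, a replicate block, sex as a term, and leaving out arrays.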

Additional observations from a re-analysis of the deposited data

Results flagged for a closer look

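In 27 of the genes named, 1 of the 9 carrier arrays lay further from the others than Dixon's critical value allows. Chance alone gives about 1 in 20 such groups if they are independent, but all these genes share the same 9 carrier arrays. That rate is no baseline for genes named as a list's largest difference, which an extreme carrier array can enlarge. Epb42, named so, differed by -0.66 on 12 arrays and by -0.20 without SNP 1. For 25 of the 27 genes the array was SNP 1. It was the highest carrier for the granule and neutrophil genes Ltf (11.45), Camp (11.56), Mmp8 (11.34), S100a9 (11.89), S100a8 (11.40) and Cxcr2 (11.18), the erythroid genes Klf1 (9.50) and Epb42 (9.21), the lymphoid genes Bank1 (9.36), Rag1 (8.92) and Il2rg (9.48), the monocyte genes Fcgr1 (7.72) and Adgre1 (8.83), and Atp1b1 (8.92), Pbx3 (8.15), Klf6 (9.73), Il1b (9.18) and Ccl5 (9.20). It was the lowest carrier for Rxylt1 (5.61), Gstm1 (6.86), Cst7 (6.06), Hoxa9 (5.55), Prmt5 (6.83), Rrp9 (5.61) and Bid (7.07). The other 2 were wtKI 2, the highest carrier for Clca1 (5.62) and Rabgap1l (7.68). Without SNP 1, Ltf differed by -2.50 and Camp by -2.17 between KO and the carriers.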

How the results depend on the processing

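The count of 0 genes called in KO against the pooled carriers became 5 with median polish, 8 with the mean of probe sets, 3 with quantile normalization, 6 without genes of 1 probe set, 2 with a variance trend, 2 in a fit of 2 groups, 460 with array weights (KO 2 weighted 4.54, SNP 1 0.201) and 1 without KO 1 and SNP 1 together; leaving out 1 array at a time gave 0 to 14 (1 without KO 3, 14 without SNP 1). With the replicate block it stayed at 0 (smallest adjusted p 0.113; 911 genes at an unadjusted p under 0.05), while the calls against WT and against SNP fell to 0 each. The numbers do not pair the arrays of all groups, though the 3 same-number pairs that correlate over 0.1 are the 3 of KO with SNP (0.34, 0.19 and 0.14).

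Against WT (1 called) the count was 0 with median polish, with the brightest probe set, with sex as a term and on the 9 arrays with high Y-linked genes, 3 with the mean and with quantile normalization, 134 with array weights and 9 without both arrays; leaving out 1 array gave 0 to 9. Against SNP (2 called) it was 13 with the mean, 1 without the dimmest 30% of genes, with a variance trend and without both arrays, 98 with array weights, and 0 with the brightest probe set, sex as a term or the high Y-linked arrays; leaving out 1 gave 0 to 3. Against wtKI (0 called) it was 138 with array weights and 1 without both arrays; leaving out 1 gave 0 to 1.

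The 113 genes separated higher became 72 without the dimmest 30% of genes, 39 at a difference of 1 or more, 9 at a gap of 0.5 or more (chosen after seeing the data), 244 on the arrays with high Y-linked genes and 527 without both arrays; leaving out 1 gave 120 to 413. The 58 lower became 39, 14, 4, 171 and 485 at the same settings in that order. Leaving out 1 gave 70 to 411. Of 2496 alternative values of the 98 named genes, 22 had the other sign, in 16 genes; 2 of these genes were separated, Atp8b1 and Engase, at -0.02 each on the brightest probe set. None of the 22 was past the threshold in either setting. With 3 KO arrays a gene at the median SE of 0.238 needs a large difference to pass, and signal near the 5th percentile of an array gives only a bound.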

Other observations

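Some further separated genes are given as values only. On the higher side, Fads1, a fatty acid desaturase, differed by 1.03 (log2), the elongases Elovl6 and Elovl5 by 0.98 and 0.99, and the transcription factor Srebf1 by 0.41. These genes were picked after their values were seen, and they stand for no group. Gclm and Srxn1, which act in glutathione synthesis and in the repair of oxidised peroxiredoxins, differed by 0.77 and 1.29. On the lower side, Ncf4, a subunit of the phagocyte oxidase, differed by -0.86, and Vhl, which marks hypoxia-inducible factors for destruction, by -0.93.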
